A study of Mus musculus with 15 samples.

Results

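Receptors for the Fc portion of antibodies, their signalling adaptors and the kinase Syk were examined in mouse joints as 8 genes of the 26688 in the deposited count table. These were Fcgr1, Fcgr3 and Fcgr4 (activating receptors for IgG), Fcgr2b (the inhibitory receptor for IgG), Fcer1g and Tyrobp (adaptors), Syk (a tyrosine kinase) and Fcgrt (the neonatal Fc receptor). Each was found by its exact symbol, and all 8 of 8 passed the filter on low counts. Messenger RNA of forelimb joint capsule, synovium and surrounding soft tissue had been sequenced in 15 libraries from male DBA/1 mice of 8 weeks, 5 in each of 3 groups. The healthy group was not immunized. The CIA group had collagen-induced arthritis, raised by a first and a booster injection of bovine type II collagen in Freund's adjuvant, and entered the study at an arthritis index above 5. The CIA+F20 group had the same disease at entry and received the compound F20 by mouth at 10 mg/kg daily for 21 days. No vehicle is stated for the CIA group in the sources used here, and whether the libraries stem from different mice is not spelled out, so the p-values describe variation among libraries, which may be technical.

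Activating Fc gamma receptors bind IgG in immune complexes and signal through the common gamma chain encoded by Fcer1g. That chain carries an immunoreceptor tyrosine-based activation motif (ITAM), whose paired tyrosines are phosphorylated by Src family kinases and then bind Syk. Tyrobp (DAP12) is a second ITAM adaptor, used by other myeloid receptors and in osteoclast formation. Fcgr2b carries an inhibitory motif (ITIM) that recruits the phosphatase encoded by Inpp5d, and Fcgrt, which has no part in ITAM signalling, protects IgG and albumin from breakdown. In collagen-induced arthritis, antibodies against collagen form immune complexes in the joint.

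The motifs that give the adaptors and the inhibitory receptor their opposite signs are shown as coding sequence on GRCm39, read from the canonical transcripts of GENCODE vM39. In the ITAMs capitals mark the codons of the tyrosines and of the leucines that follow them, and in the ITIM capitals mark the tyrosine codon.
Fcer1g ITAM, chr1:171057458-171057641, minus strand, exons 4 to 5: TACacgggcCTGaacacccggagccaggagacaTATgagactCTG
Tyrobp ITAM, chr7:30115095-30116807, plus strand, exons 4 to 5: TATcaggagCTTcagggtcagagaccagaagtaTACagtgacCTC
Fcgr2b ITIM, chr1:170788640-170788657, minus strand, exon 7: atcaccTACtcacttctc
The Fcer1g motif spans residues 65 to 79 of 86, the Tyrobp motif residues 92 to 106 of 114 and the Fcgr2b motif residues 270 to 275 of 293.

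Per the deposited table (GRCm39), 4 of the 8 genes lie on chromosome 1: Fcgr2b at chr1:170786186-170804116 on the minus strand, Fcgr4 at chr1:170846489-170857330 on the plus strand, Fcgr3 at chr1:170878743-170892504 on the minus strand and Fcer1g at chr1:171057141-171061934 on the minus strand. Fcgr1 lies at chr3:96190225-96201285 (minus), Tyrobp at chr7:30113185-30117010 (plus), Fcgrt at chr7:44742414-44753275 (minus) and Syk at chr13:52737209-52802828 (plus). The extracellular parts of Fcgr2b and Fcgr3 are alike: 512 bases of the Fcgr2b transcript aligned to Fcgr3 at 96.3% identity. Their longest identical stretch, 129 bases of coding sequence over exons 3 to 4, is shown because reads inside it fit both genes.
Fcgr2b (chr1:170794243-170795650, minus strand) and Fcgr3 (chr1:170881736-170885361, minus strand), GRCm39: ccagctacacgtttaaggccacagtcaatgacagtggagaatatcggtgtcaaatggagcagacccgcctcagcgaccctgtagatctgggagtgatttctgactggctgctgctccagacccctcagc
Of all windows of 100 bases, 1.33% of those in Fcgr2b and 3.04% of those in Fcgr3 occur in the other transcript. These shares do not bound the uncertainty of the counts of this pair. The alike bases reach beyond the identical ones, and how reads that fit both genes were counted is not given in the sources used here. A noncoding gene on the opposite strand, Gm38204, shares 355 exonic bases with Fcgr2b (6.06%), and the strand setting of the counting is not given in the sources used here.

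Depth was 18627303 to 34247317 reads per library. Levels are in CPM, read counts per 1000000 reads after TMM scaling of library sizes. Genes are called, in either direction, where the edgeR adjusted p is under 0.05. Healthy library 3 stood apart from the other healthy libraries in neutrophil markers (14 genes summing to 685 CPM, against 71.1 to 108 CPM in the other 4) and healthy library 4 in T cell markers (8 genes, 77.6 CPM against 0.656 to 2.61 CPM).

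In arthritic joints 7 of the 8 genes were higher than in healthy joints. The activating receptors Fcgr4 and Fcgr1 had the highest fold changes of the 8 (24.2-fold and 10.7-fold), followed by the adaptors Tyrobp (7.93-fold) and Fcer1g (7.13-fold), the inhibitory receptor Fcgr2b (5.13-fold), Syk (4.62-fold) and Fcgr3 (4.38-fold). Without healthy library 3 the log2 fold change of Fcgr4 went from 4.60 to 5.81, and without CIA library 2 that of Fcgr1 went from 3.42 to 2.84, next to 2.83 for Tyrobp. Fcgrt was not called. Of all 15770 genes tested, 26.0% were called higher and 19.5% lower in CIA, so higher calls were common in this comparison. The libraries of the 2 groups did not overlap for 6 of the 8 genes, all higher in CIA, against 11.7% of all genes tested. Fewer cells of a type and less RNA per cell cannot be told apart in such bulk tissue.

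**Figure D1:**
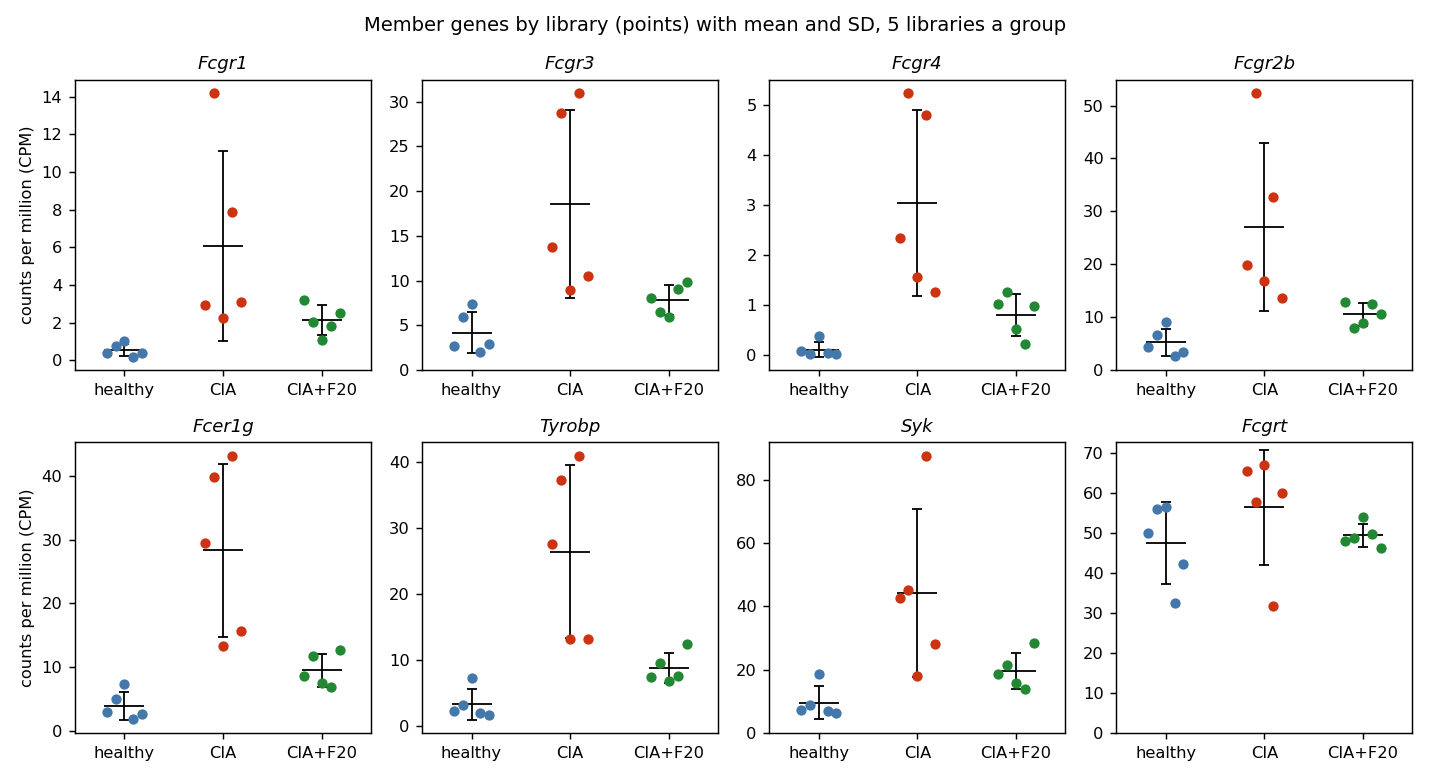
CPM of the 8 genes in each library (points, 5 per group), with the group mean (horizontal bar) and SD (vertical bar); each panel has its own linear axis. For Fcer1g the 5 CIA libraries lay between 13.3 and 43.2 CPM, above all healthy and CIA+F20 libraries, while the 3 groups overlapped for Fcgrt. The Fcer1g margin over CIA+F20 was within counting error.

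Among the activating receptors, Fcgr1 encodes the high-affinity receptor for IgG. The healthy libraries 1 to 5 held 0.410, 0.749, 1.01, 0.174 and 0.397 CPM of Fcgr1. The CIA libraries held 2.95, 14.2, 2.23, 7.88 and 3.08 CPM, and the CIA+F20 libraries 3.20, 2.05, 1.10, 1.81 and 2.49 CPM. Every CIA and every CIA+F20 library lay above every healthy library, and CIA and CIA+F20 overlapped. The log2 fold change was 3.42 ± 0.57 (SE) for CIA versus healthy (edgeR adjusted p = 0.000542) and -1.51 ± 0.51 for CIA+F20 versus CIA (edgeR adjusted p = 0.0376). The latter was -0.93 and not called without CIA library 2 (edgeR adjusted p = 0.142).

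Fcgr4 encodes a receptor of intermediate affinity for IgG found on monocytes, macrophages and neutrophils. It was the scarcest of the 8 in healthy joints, with 2, 1, 11, 1 and 1 reads in libraries 1 to 5. In CIA there were 51, 159, 41, 130 and 36 reads, and the CIA+F20 libraries 27, 31, 15, 7 and 29 reads. All CIA libraries lay above all libraries of both other groups in CPM, and CIA+F20 library 4 lay below healthy library 3. CIA library 5 held 1.276 CPM (36 reads) and CIA+F20 library 2 held 1.268 CPM (31 reads). The 95% intervals of these counts for counting error, 25.2 to 49.8 and 21.1 to 44.0 reads, overlapped. With reads summed over each group (417 against 16), the CIA rate was 25.4 times the healthy rate, with a 95% exact interval of 15.5 to 44.9 that covers counting error only. The fitted log2 fold change was 4.60 ± 0.69 for CIA versus healthy (edgeR adjusted p = 0.000319) and -1.93 ± 0.56 for CIA+F20 versus CIA (edgeR adjusted p = 0.0211).

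Fcgr3 encodes the low-affinity activating receptor for IgG immune complexes. Its healthy libraries held 2.71, 5.92, 7.42, 2.03 and 2.98 CPM. Its CIA libraries held 13.7, 28.8, 8.95, 31.0 and 10.5 CPM, and its CIA+F20 libraries 8.07, 6.46, 5.91, 9.04 and 9.82 CPM. Healthy and CIA libraries did not overlap, whereas CIA library 3 lay below the 2 highest CIA+F20 libraries. The margin of CIA library 3 (233 reads) over healthy library 3 (213 reads) was within counting error. Fcgr3 had a log2 fold change of 2.13 ± 0.41 for CIA versus healthy (edgeR adjusted p = 0.00119) and -1.24 ± 0.39 for CIA+F20 versus CIA (edgeR adjusted p = 0.0307).

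The inhibitory receptor Fcgr2b, found on B cells and myeloid cells, moved in the same direction as the activating receptors. The healthy libraries held 4.34, 6.67, 9.09, 2.73 and 3.41 CPM. In CIA the values were 19.9, 52.4, 16.9, 32.8 and 13.6 CPM, and the CIA+F20 libraries 12.8, 8.06, 8.84, 12.5 and 10.6 CPM. CIA libraries lay above all others, by a margin over CIA+F20 library 1 that was within counting error. Fcgr2b had a log2 fold change of 2.36 ± 0.39 for CIA versus healthy (edgeR adjusted p = 0.000521) and -1.36 ± 0.37 for CIA+F20 versus CIA (edgeR adjusted p = 0.0163).

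The common gamma chain Fcer1g, on which surface expression of the activating receptors depends, averaged 3.93 ± 2.19 CPM (SD, n = 5) in healthy joints. In CIA the values were 29.5, 39.8, 13.3, 43.2 and 15.7 CPM, and the CIA+F20 libraries 8.68, 11.7, 7.46, 6.94 and 12.7 CPM. CIA overlapped with neither group, but the margin of CIA library 3 over CIA+F20 library 5 was within counting error. The log2 fold change was 2.83 ± 0.40 for CIA versus healthy (edgeR adjusted p = 0.000273) and -1.58 ± 0.38 for CIA+F20 versus CIA (edgeR adjusted p = 0.0101).

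Tyrobp averaged 3.30 ± 2.33 CPM (SD, n = 5) in healthy joints, with 7.35 CPM in healthy library 3 and 1.75 to 3.20 CPM in the other 4. The CIA libraries held 27.5, 37.2, 13.2, 40.9 and 13.2 CPM, and the CIA+F20 libraries 7.46, 9.53, 6.82, 7.61 and 12.4 CPM. CIA again overlapped with neither group, but the margin of CIA library 5 over CIA+F20 library 5 was within counting error. Tyrobp had a log2 fold change of 2.99 ± 0.43 for CIA versus healthy (edgeR adjusted p = 0.000293) and -1.59 ± 0.41 for CIA+F20 versus CIA (edgeR adjusted p = 0.0130).

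Syk is the kinase that binds phosphorylated ITAMs. The healthy libraries held 7.17, 8.92, 18.6, 6.97 and 6.19 CPM. The CIA libraries held 42.7, 45.2, 18.2, 87.7 and 28.1 CPM, and the CIA+F20 libraries 18.7, 21.5, 15.7, 13.9 and 28.4 CPM. CIA library 3 lay below healthy library 3, so the groups overlapped. The log2 fold change was 2.21 ± 0.40 for CIA versus healthy (edgeR adjusted p = 0.000903) and -1.18 ± 0.39 for CIA+F20 versus CIA (edgeR adjusted p = 0.0352).

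Fcgrt averaged 47.5 ± 10.2 CPM in healthy, 56.4 ± 14.3 CPM in CIA and 49.4 ± 2.92 CPM in CIA+F20 joints (SD, n = 5 each). Its libraries ranged from 32.5 to 56.5 CPM in healthy, 31.7 to 66.9 CPM in CIA and 46.3 to 54.1 CPM in CIA+F20 joints. These ranges overlapped in all 3 comparisons. The log2 fold change for CIA versus healthy was 0.25, with a 95% interval of -0.11 to 0.60 (edgeR adjusted p = 0.281), and for CIA+F20 versus CIA -0.19, with an interval of -0.55 to 0.17 (edgeR adjusted p = 0.435).

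Arthritic joints with F20 were set against CIA joints, for which no vehicle is stated in the sources used here. The same 7 genes were lower with F20, at 0.26 to 0.44 times the CIA level, and Fcgrt was not called. Of all genes tested, 15.5% were called lower and 14.1% higher. For 4 of the 8 (Fcer1g, Fcgr2b, Fcgr4 and Tyrobp) all CIA+F20 libraries lay below all CIA libraries, against 5.32% of all genes tested. For Fcgr4 this rested on 1.276 CPM in CIA library 5 against 1.268 CPM in CIA+F20 library 2, a margin within counting error. The margins of the other genes were within counting error too. For Fcer1g, CIA library 3 held 13.3 CPM (346 reads) and CIA+F20 library 5 12.7 CPM (373 reads). For Fcgr2b, CIA library 5 held 13.6 CPM (383 reads) and CIA+F20 library 1 12.8 CPM (336 reads). For Tyrobp, CIA library 5 held 13.2 CPM (371 reads) and CIA+F20 library 5 12.4 CPM (365 reads). The count of 7 fell to 2 (Fcer1g and Tyrobp) without CIA library 2, and to 4 without CIA library 4 or without CIA+F20 library 2, 3 or 4. The CIA libraries 2 and 4 held the highest levels of all 7 genes.

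Against healthy joints, 0 of the 8 genes were called in CIA+F20 by edgeR, as were 0.00% of all genes in either direction. At an unadjusted p under 0.05, 7 of the 8 were higher, against 6.61% of all genes tested, and none lower, against 2.19%. Fcgr4 stood at a log2 difference of 2.67 ± 0.70 (edgeR adjusted p = 0.315; 3.89 without healthy library 3), Fcgr1 at 1.91 ± 0.55 (edgeR adjusted p = 0.330), Tyrobp at 1.40 ± 0.42 and Fcer1g at 1.26 ± 0.39 (edgeR adjusted p = 0.345 each). Fcgr1 was the 1 gene of the 8 whose CIA+F20 libraries all lay above the healthy ones, against 1.98% of all genes tested. Its margin was within counting error, with 1.10 CPM (31 reads) in CIA+F20 library 3 and 1.01 CPM (29 reads) in healthy library 3. DESeq2 called Fcgr4 higher (adjusted p = 0.0229), and without healthy library 3 edgeR called Fcgr4 and Tyrobp higher (adjusted p = 0.0380 each). Of all genes, DESeq2 called 108 of 25702 higher, and edgeR without healthy library 3 called 105 of 15935 higher. The 3 comparisons between groups share their libraries, so they are not independent of each other.

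**Figure D2:**
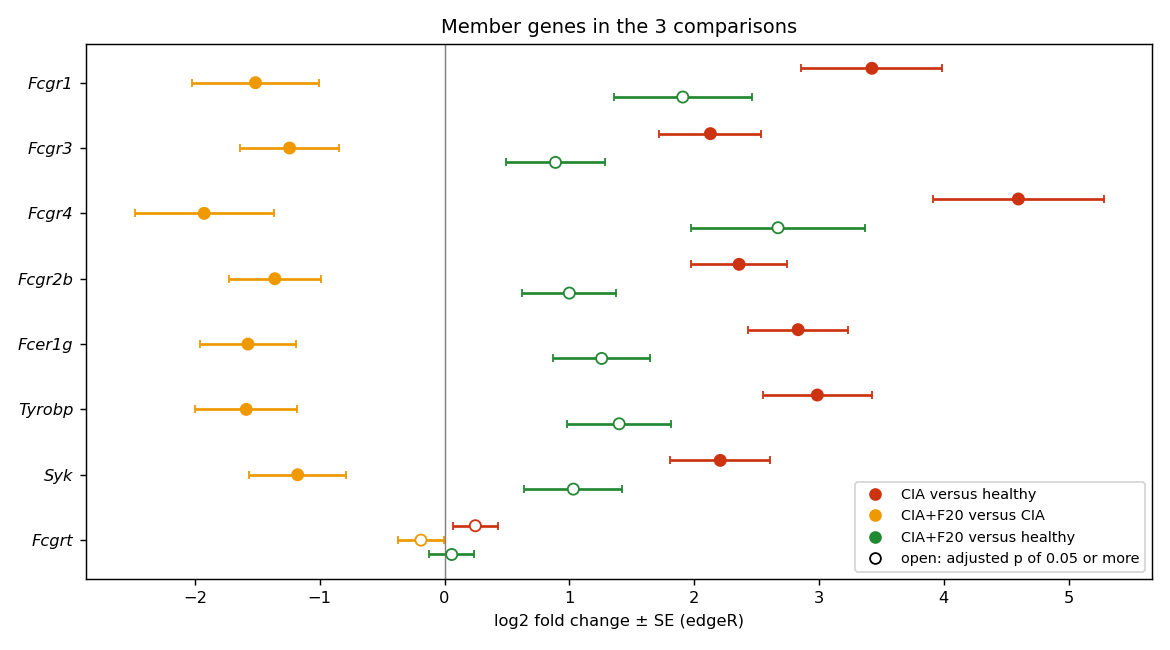
Fitted log2 fold changes (horizontal axis, points) with SE (bars) of the 8 genes in the 3 comparisons; filled points have an edgeR adjusted p under 0.05. All genes lie right of 0 for CIA versus healthy and left of 0 for CIA+F20 versus CIA, where only the Fcgrt points are open. The points for CIA+F20 versus healthy lie right of 0 but are all open.

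The balance of activating to inhibitory receptors was measured as reads of each activating receptor per 100 reads of Fcgr2b in the same library, which removes scaling between libraries but not the length of the transcripts. The ratios of Fcgr1 and Fcgr4 were higher in CIA than in healthy joints at the pseudocount used, and for Fcgr3 no difference passed the test. Log2 ratios (pseudocount 0.5) were compared by a two-sided exact permutation test of 5 libraries against 5, whose smallest possible p is 0.00794, adjusted over 9 comparisons.

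For Fcgr1 the healthy libraries 1 to 5 held 9.43, 11.2, 11.1, 6.38 and 11.7 reads per 100 Fcgr2b reads. In CIA there were 14.8, 27.1, 13.2, 24.0 and 22.7, and the CIA+F20 libraries 25, 25.4, 12.4, 14.5 and 23.4 reads per 100. All libraries of both arthritic groups lay above the healthy ones. The log2 ratio was higher by 0.94 ± 0.24 (SE) in CIA (exact permutation p = 0.00794, adjusted 0.0238) and by 0.92 ± 0.25 in CIA+F20 (exact permutation p = 0.00794, adjusted 0.0238) than in healthy joints. At a pseudocount of 5 these differences were 0.53 (exact permutation p = 0.0318) and 0.55 (exact permutation p = 0.0397), and neither passed after adjustment (0.119 each). Between CIA+F20 and CIA it differed by -0.02 ± 0.30 (exact permutation p = 0.905), so a lower level of both receptors with F20 came with a ratio whose difference was within the spread of the libraries.

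For Fcgr4 the healthy libraries held 1.89, 0.510, 4.22, 2.13 and 0.971 reads per 100 Fcgr2b reads. In CIA there were 11.8, 10.0, 9.32, 14.7 and 9.40, and the CIA+F20 libraries 8.04, 15.7, 6, 1.78 and 9.30 reads per 100. CIA lay wholly above healthy, while CIA+F20 spanned nearly the whole range. The log2 ratio was higher by 2.42 ± 0.46 in CIA than in healthy joints (exact permutation p = 0.00794, adjusted 0.0238), and by 0.98 at a pseudocount of 5 (exact permutation p = 0.0318, adjusted 0.119). It was higher by 1.73 ± 0.68 in CIA+F20 than in healthy joints (exact permutation p = 0.0397, adjusted 0.0893), which did not pass after adjustment and fell to 0.51 at a pseudocount of 5. Healthy values rest on 16 Fcgr4 reads in all. Between CIA+F20 and CIA the log2 ratio differed by -0.69 ± 0.52 (exact permutation p = 0.238, adjusted 0.429), and by -0.997 without CIA+F20 library 2 (exact permutation p = 0.0159).

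For Fcgr3 the ratio averaged 78.9 ± 10.9 in healthy, 69.7 ± 17.1 in CIA and 75.0 ± 11.7 reads per 100 Fcgr2b reads in CIA+F20 joints (SD, n = 5 each). The log2 ratio differed by -0.20 ± 0.18 between CIA and healthy (exact permutation p = 0.286), by 0.13 ± 0.18 between CIA+F20 and CIA (exact permutation p = 0.5) and by -0.08 ± 0.13 between CIA+F20 and healthy joints (exact permutation p = 0.595). The stretch shared by these genes, shown above, limits this ratio.

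**Figure D3:**
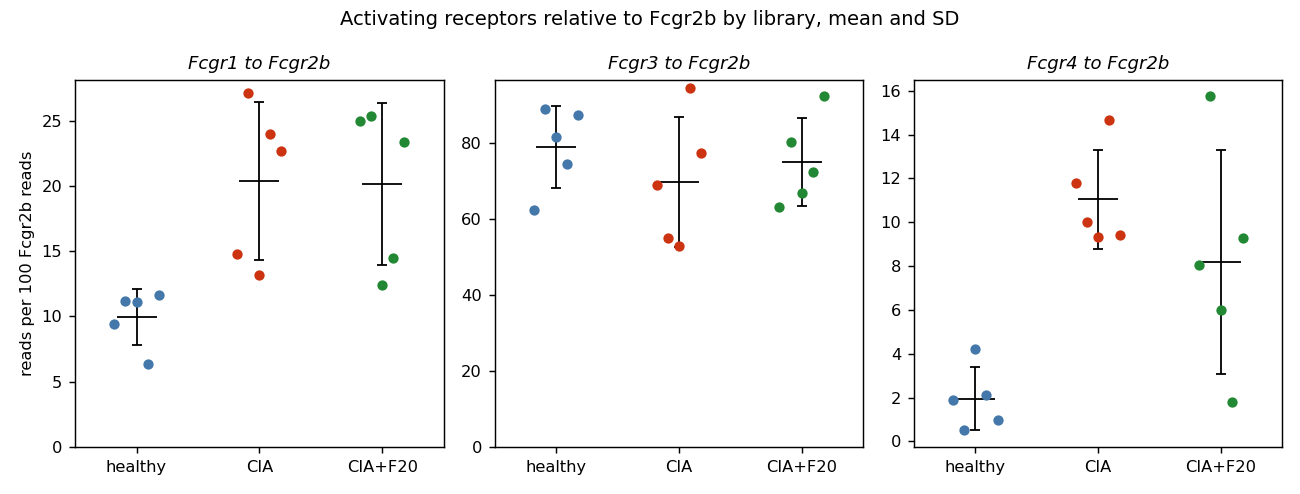
Reads of each activating receptor per 100 Fcgr2b reads (linear vertical axis) in each library (points), with the group mean and SD. For Fcgr1 and Fcgr4 all CIA points lie above all healthy points, and for Fcgr3 the 3 groups overlap.

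Levels were compared between genes per kilobase of the canonical transcript. In healthy joints the mean CPM per kilobase was 16.2 for Fcgrt, 5.43 for Tyrobp, 4.10 for Fcer1g, 2.73 for Fcgr3, 1.63 for Syk, 1.54 for Fcgr2b, 0.207 for Fcgr1 and 0.0923 for Fcgr4. The step from Fcgr2b to Fcgr1 was the only one between neighbours whose libraries did not overlap. In CIA the adaptors led, with 43.5 CPM per kilobase for Tyrobp and 29.5 for Fcer1g against 19.2 for Fcgrt, and every neighbouring pair in the order overlapped. In CIA+F20 Fcgrt led again at 16.9, with Tyrobp at 14.5 and Fcer1g at 9.92 CPM per kilobase, but the libraries of Fcgrt and Tyrobp overlapped. The order of these 2 genes depends on the length taken. All annotated exons span 4917 bases for Fcgrt, against 2932 for its canonical transcript. For Tyrobp they span 682 bases, against 607.

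Cell type markers were measured in the same libraries. The 16 macrophage markers summed to 150 to 400 CPM (median 208) in healthy, 607 to 1432 CPM (median 1083) in CIA and 400 to 581 CPM (median 439) in CIA+F20 libraries. Of the 16, 14 were called higher in CIA and 12 lower with F20, and none was without reads in a group, though Aif1 and Ms4a7 averaged under 1 CPM in healthy joints. The 14 neutrophil markers summed to 71.1 to 685 CPM in healthy, 680 to 5698 CPM in CIA and 419 to 1368 CPM in CIA+F20 libraries. All 13 neutrophil markers tested were called higher in CIA and 1 was called lower with F20, which became 6 without healthy library 3, 5 without CIA library 3 and 2 without CIA library 5. The 10 osteoclast markers summed to 23.1 to 60.4, 181 to 655 and 38.1 to 115 CPM in the same order, with 9 called higher in CIA and 9 called lower with F20. Called higher in CIA were also 6 of 8 tested B and plasma cell markers, 3 of 8 mast cell markers, 6 of 7 erythroid markers, 2 of 2 NK cell markers, 1 of 5 T cell markers, 3 of 6 dendritic cell markers and 2 of 8 joint lining and fibroblast markers, while 3 of 8 endothelial markers, 1 dendritic cell marker and 1 joint lining and fibroblast marker were lower. Of all genes tested, 26.0% were called higher and 19.5% lower in CIA. The T cell and the joint lining and fibroblast markers called higher were near that share. Leaving out single libraries took the erythroid count from 6 to 0 without CIA library 4, to 3 without CIA library 1 and to 2 without healthy library 1, 2, 4 or 5, the T cell count to 4 without healthy library 4 or to 0 without healthy library 1, 2 or 5 or CIA library 4, the endothelial count to 1 without healthy library 1 or 4 or CIA library 4 or 5, and the lining count to 1 without most libraries of any group. With F20 against CIA, 0 of the B and plasma, NK, T and erythroid markers were called, 1 mast cell, 2 dendritic and 1 lining and fibroblast marker were lower, and 1 dendritic, 1 endothelial and 1 lining and fibroblast marker were higher. In that comparison 15.5% of all genes tested were called lower and 14.1% higher. Of the 12 skeletal muscle markers 8 were lower in CIA and 4 higher with F20 (7 without CIA library 3), summing to 103000 to 124200, 47270 to 105900 and 93550 to 116900 CPM. With the muscle marker level as a covariate, edgeR called 0 of the 8 genes in CIA versus healthy and 0 in CIA+F20 versus CIA. At an unadjusted p under 0.05, 6 were higher in the former and 1 was lower in the latter. That 1 gene was Fcgrt, which was also among the 6, while Fcgr3 and Syk were not among them. With the same covariate, 3547 of all 15770 genes tested had such a p in CIA versus healthy, counting both directions. In CIA+F20 versus CIA 2532 of 15770 had one, and the 1 of 8 genes was not above that share. In CIA versus healthy the log2 difference of Fcgr4 was then 3.15 ± 0.80 (edgeR adjusted p = 0.0557) and that of Fcer1g 1.47 ± 0.42 (edgeR adjusted p = 0.0714). For Fcgr3 it was 0.65 ± 0.41 (edgeR adjusted p = 0.367) and for Syk 0.73 ± 0.42 (edgeR adjusted p = 0.323). In CIA+F20 versus CIA, Fcgr4 stood at -0.75 ± 0.65 (edgeR adjusted p = 0.611) and Fcer1g at -0.49 ± 0.37 (edgeR adjusted p = 0.556). There Fcgr1 stood at -0.02 ± 0.56, Fcgr3 at -0.04 ± 0.37 and Syk at -0.000619 ± 0.37. Part of the muscle had been removed by dissection, so the share of muscle in a sample and the disease cannot be told apart here, and the part of cell makeup in the results was not tested.

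The log2 CPM of each gene was also set against the mean log2 CPM of the 16 macrophage markers in the same library, as a description. Fcgr3 (-0.80 in healthy, -0.72 in CIA, -0.67 in CIA+F20 libraries) and Syk (0.41, 0.52 and 0.62) kept much the same distance to these markers in the 3 groups. The means of Fcgr4 (-5.36, -3.33 and -4.0) and Fcgr1 (-3.59, -2.50 and -2.57) lay closer to them in both arthritic groups than in healthy joints. The CIA+F20 and healthy libraries overlapped for Fcgr4 (-5.57 to -2.90 against -6.40 to -4.53). They also overlapped for Fcgr1 (-3.35 to -1.86 against -4.25 to -3.29). The healthy Fcgr4 values rest on few reads. Tyrobp went from -1.19 to -0.19 and -0.52, Fcer1g from -0.89 to -0.08 and -0.41, and Fcgr2b from -0.45 to -0.17 and -0.24. Fcgrt, the gene that was not called, lay above the markers by 2.81 in healthy joints, by 1.02 in CIA joints and by 2.0 in joints given F20.

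**Figure D4:**
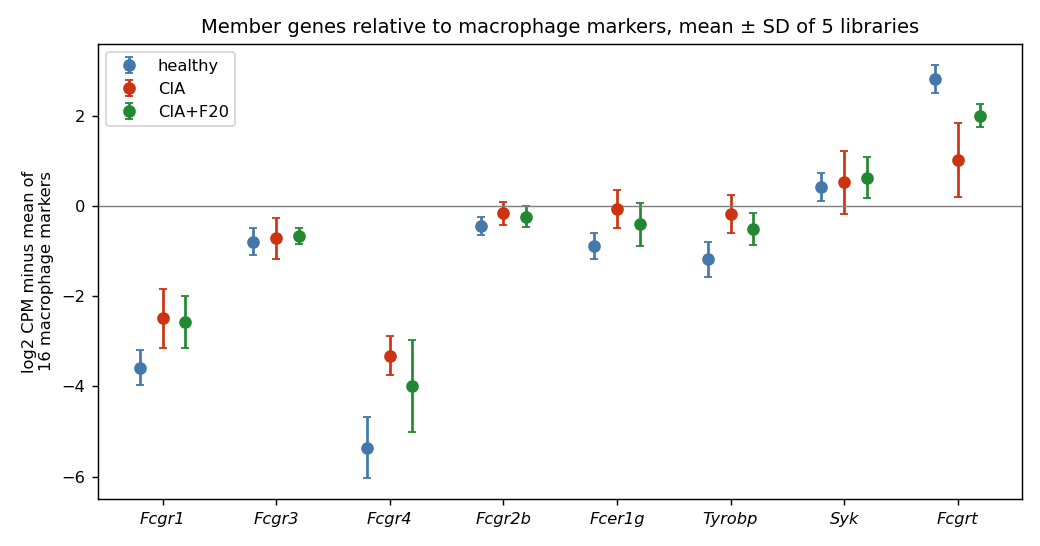
Log2 CPM of each gene minus the mean log2 CPM of 16 macrophage markers in the same library (vertical axis), as mean and SD of 5 libraries per group. Fcgr4 lies at -5.36 in healthy and -3.33 in CIA libraries, whereas the means of Fcgr3 lie between -0.80 and -0.67.

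The genes with the profiles most like each of the 8 over the 15 libraries were found by the root mean square difference of gene-centred log2 CPM among 11685 genes. For Fcer1g these were Laptm5 (0.161), Tyrobp (0.216) and Csf2ra (0.221), and for Tyrobp they were Laptm5 (0.196), Fcer1g (0.216) and the integrin Itgam (0.218). For Fcgr1 they were Tlr13 (0.356), the chemokine receptor Ccr2 (0.422) and Spi1 (0.454), which encodes the myeloid transcription factor PU.1. For Fcgr4 they were Cd300lf (0.474), Ccr1 (0.479) and the Src family kinase Fgr (0.504). For Fcgr2b they were Ccl9 (0.219), Clec4a1 (0.232) and Dram1 (0.240), and for Fcgr3 Rab32 (0.213), Fcgr2b (0.251) and Pld4 (0.265). For Syk they were Aldh3b1 (0.162), Inpp5d (0.175) and Rasgrp4 (0.186), and for Fcgrt Six5 (0.142), Epb41l1 (0.147) and Tcf7l2 (0.161). Laptm5 is also one of the macrophage markers used above.

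Other genes of the pathway were described by lists of roles. The counts of every list stand against the calls over all genes tested. These were 26.0% higher and 19.5% lower in CIA, and 15.5% lower and 14.1% higher with F20 against CIA. The first list was of receptors that pair with ITAM adaptors or carry a single such motif. It also held Hcst, itself an adaptor, and Treml1, which carries an ITIM. Of its 24 tested genes, 23 were higher in CIA and none lower, with a median log2 fold change of 3.24 against 0.07 over all genes tested. Those with the lowest p were the CD300 family receptor Cd300c2 (3.46 ± 0.46), the beta-glucan receptor Clec7a (3.03 ± 0.42), and the C-type lectins Clec4d (3.89 ± 0.54) and Clec4n (4.13 ± 0.60), as log2 fold change ± SE. With F20, 17 of the 24 were lower than in CIA and none higher (median -1.54 against -0.06 over all genes). Cd300c2 fell by 2.02 on the log2 scale and Clec7a by 1.38. The count of 17 was 8 without CIA library 2, 9 without CIA library 4, 10 without CIA+F20 library 1 and 8 without CIA+F20 library 3 or 4. With the muscle marker level as a covariate 3 were higher in CIA and 0 lower with F20.

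Src family kinases, which phosphorylate ITAMs, were higher in CIA for 5 of 8 and lower for none. These included Src (1.77 ± 0.23), Fgr (3.55 ± 0.58) and Lyn (1.48 ± 0.28), and with F20 4 of the 8 were lower than in CIA and none higher. The count of 4 was 1 without CIA library 4 or CIA+F20 library 4, and 2 without healthy library 5, CIA library 1 or 2, or CIA+F20 library 1, 2, 3 or 5. With the muscle covariate 1 was higher in CIA and 0 lower with F20. Of 26 tested transducers that act after Syk, 19 were higher and 1 lower in CIA (median 1.02), and 11 were lower and 1 higher with F20 (median -0.87). The adaptor Lat2 (2.70 ± 0.29), the phosphoinositide 3-kinase adaptor Pik3ap1 (3.14 ± 0.48), the kinase Tec (1.06 ± 0.17) and the phospholipase Plcg2 (2.89 ± 0.48) rose in CIA. Rasgrp3, an activator of Ras proteins, was the exception at -0.95 ± 0.23 in CIA (edgeR adjusted p = 0.00441) and 1.0 ± 0.23 with F20 against CIA (edgeR adjusted p = 0.00803). The 11 lower transducers were 3 without CIA library 2 or 4 or CIA+F20 library 3 or 4, 4 without CIA+F20 library 1, 5 without CIA+F20 library 2 and 6 without CIA library 1. With the muscle covariate 2 were higher and 0 lower in CIA, and 0 were called with F20.

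Of 28 tested ITIM receptors, phosphatases and related inhibitors, 23 were higher and 2 lower in CIA (median 2.05), and 16 were lower and 2 higher with F20 (median -1.22). The CD47 receptor Sirpa (1.83 ± 0.22), Cd300a (1.90 ± 0.25), Lilrb4a (3.31 ± 0.48) and Clec4a2 (3.54 ± 0.53) were higher in CIA. Those lower in CIA were the phosphatases Ptpn11 (-0.65 ± 0.10, edgeR adjusted p = 0.000307) and Inppl1 (-0.42 ± 0.10, edgeR adjusted p = 0.00444), and both were higher with F20 than in CIA (0.44 ± 0.09 and 0.44 ± 0.10). Inpp5d, the phosphatase recruited by Fcgr2b, was higher in CIA by 2.21 ± 0.35. The 16 lower with F20 were 9 without CIA library 2, 7 without CIA library 4, 10 without CIA+F20 library 1 and 8 without CIA+F20 library 4. With the muscle covariate 2 were higher and 1 lower in CIA, and 0 were called with F20.

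Of 14 other Fc receptors and relatives, 7 had enough reads to be tested, and 5 of these were higher in CIA and none lower (median 1.83). They were the cytosolic antibody receptor Trim21 (0.84 ± 0.16), the B cell genes Fcrl1 (3.0 ± 0.61) and Fcrla (2.97 ± 0.72), the IgM receptor Fcmr (2.83 ± 0.82), and the mast cell gene Ms4a2 (1.83 ± 0.71), which fell outside the naming rule and is given to complete the count. The count of 5 was 8 of 9 tested without healthy library 3, 8 of 14 without the filter on low counts, 3 of 6 with only these groups in the fit, 9 of 14 with DESeq2 and 0 with the muscle covariate. With F20 against CIA, 0 of the 7 were called by edgeR and 1 was lower at an unadjusted p under 0.05; DESeq2, which tested all 14, called 1 lower. Of the 75 tested genes that the deposited table assigns to the KEGG term for Fc gamma receptor-mediated phagocytosis, leaving out those among the 8, 39 were higher and 16 lower in CIA (median 0.33), against 26.0% and 19.5% of all genes tested. With F20 26 were lower and 12 higher than in CIA (median -0.30), against 15.5% and 14.1% of all genes. The 26 were 15 without CIA+F20 library 4, 16 without CIA library 2 or 4 and 17 without CIA library 1 or CIA+F20 library 2 or 3, and the 12 were 7 without CIA library 2 or CIA+F20 library 1 or 4. With the muscle covariate 1 was higher in CIA and 0 were called with F20. In CIA+F20 versus healthy, 0 genes of these lists were called by edgeR. At an unadjusted p under 0.05, 21 of the 24 genes listed as ITAM-paired receptors, 4 of the 8 Src family kinases and 15 of the 26 transducers were higher. So were 14 of the 28 brakes and 5 of the 7 other Fc receptors, while 1 brake was lower. Of all genes tested, 6.61% were higher and 2.19% lower at that threshold. DESeq2 called 8 of 25, 1 of 8, 1 of 27, 3 of 29 and 0 of 14 genes of these lists higher, against 108 of all 25702 genes it tested.

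**Figure D5:**
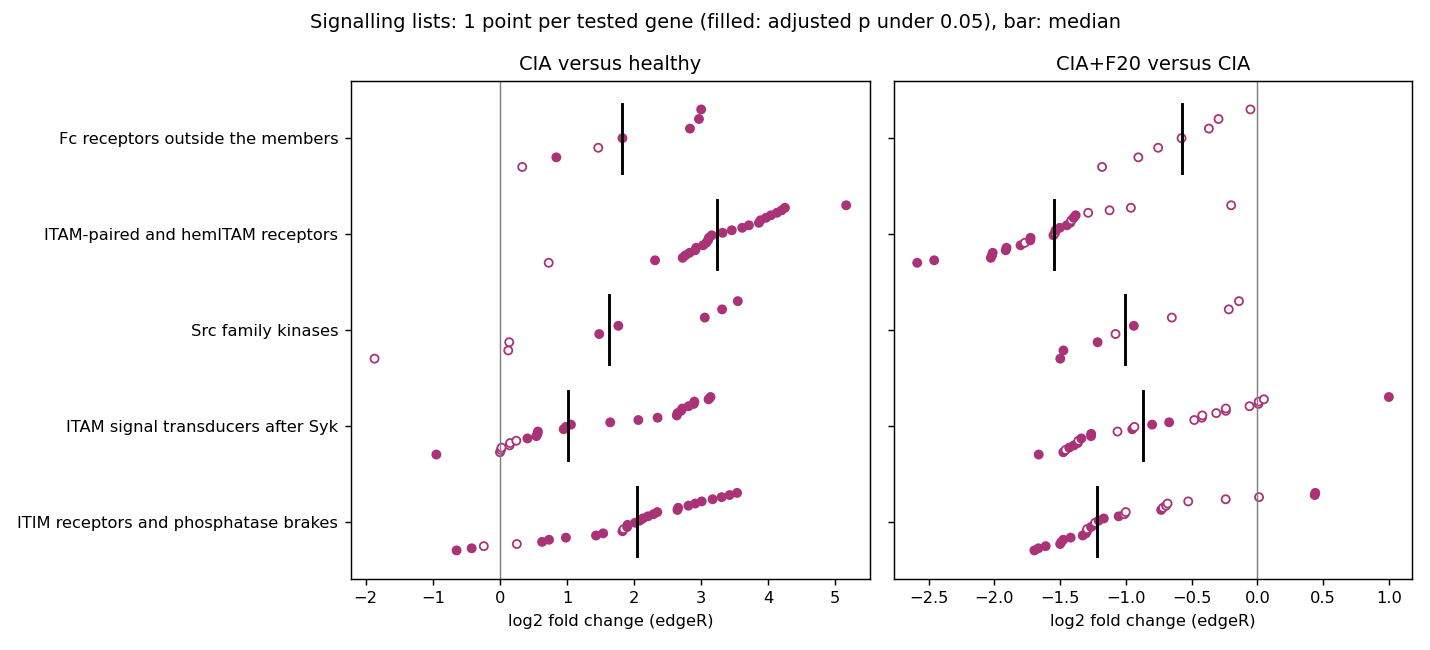
Log2 fold changes (horizontal axes) of each tested gene in 5 lists of roles, for CIA versus healthy (left) and CIA+F20 versus CIA (right); filled points have an edgeR adjusted p under 0.05 and black bars are list medians. Genes listed as ITAM-paired receptors have a median of 3.24 on the left and -1.54 on the right.

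Sequence before the transcription start was searched on both strands for GAGGAA, the core bound by ETS factors such as PU.1, and for TTCNNNGAA, bound by STAT factors, in windows of 250 bases. From GENCODE vM39 canonical starts, GAGGAA occurred in 3 of the 8 genes (Fcer1g, Tyrobp and Syk), against 22.9% of 21757 protein-coding genes, and TTCNNNGAA in 2 (Fcgr1 and Fcgr4), against 7.70%. The outcome depended on the start used. From RefSeq starts (GRCm38.p6 table, 7 of the 8 genes matched), a choice added after the first matches had been seen, GAGGAA occurred in 4 genes (Fcgr1, Fcgr3, Fcgr4 and Syk), against 23.3% of 32851 starts, and TTCNNNGAA in 1 (Fcgr1), against 7.02%. The Fcgr1 match to TTCNNNGAA was found from both starts, and its GENCODE window is shown with the match in capitals.
Fcgr1, chr3:96201339-96201588, minus strand, GRCm39: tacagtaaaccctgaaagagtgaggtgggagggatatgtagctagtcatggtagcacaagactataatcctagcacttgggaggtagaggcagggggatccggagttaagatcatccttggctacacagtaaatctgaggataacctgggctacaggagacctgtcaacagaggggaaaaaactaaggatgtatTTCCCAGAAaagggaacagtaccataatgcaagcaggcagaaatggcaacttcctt
The match begins 56 bases before the GENCODE start. It is a match of letters, and binding was not measured.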

How the data were processed

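The authors deposited raw read counts per gene for 15 libraries. The submitters' processing notes name fastp 0.23.2 for trimming, HISAT2 2.2.1 with GRCm39 for alignment and featureCounts 2.0.3 for counting; annotation release and strand setting: not given in the sources used here. Libraries were grouped by title. Counts were tested in R 4.3.3 with edgeR 4.0.16: TMM scaling, filterByExpr (minimum count 10), 1 fit of the 3 groups, the quasi-likelihood test and adjusted p-values by Benjamini-Hochberg over 15770 genes. The procedure was tested on simulated data. The SE is the log2 fold change divided by the root of its F statistic. Ratios to Fcgr2b were tested by exact permutation (252 assignments). Alternatives were DESeq2 1.42.0, other scaling, no filter, 2 groups alone, a replicate block, a muscle covariate and leaving out each library.

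The 8 genes and the lists (17 lists, 221 entries) were chosen with earlier results of these data known. Named list genes were up to 4 called genes with the lowest p in CIA versus healthy per list, plus up to 2 called in the direction fewer took; likeness named 3 genes each. One gene named by this rule is not reported here. Promoter windows were first read from GENCODE starts. RefSeq starts were added after those matches had been seen, because the canonical Fcer1g start lies upstream of the gene end in the deposited table, and both outcomes are given. No pair of libraries agreed within sampling noise (lowest chi-square per gene 22.0).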

Additional observations from a re-analysis of the deposited data

Results flagged for a closer look

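In 33 groups of 5 libraries, the gap of the highest or lowest library to its nearest neighbour was set against the range of the group, and chance alone flags about 1 in 20 groups. Healthy library 3 was far above the other healthy libraries in 3 genes. Fcgr4 stood at 0.383 CPM there against 0.0820 CPM in the next library, Tyrobp at 7.35 against 3.20 CPM and Syk at 18.6 against 8.92 CPM. The same library held 685 CPM of neutrophil markers, against 71.1 to 108 CPM in the other healthy libraries. CIA library 4 was far below the other CIA libraries in Fcgrt, at 31.7 against 57.8 CPM in the next, and had the lowest sum of muscle markers (47270 CPM) and the highest sum of neutrophil markers (5698 CPM) of the CIA libraries. The part of these markers in the deviations was not tested.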

How the results depend on the processing

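Over 22 alternatives per gene and comparison, no gene of the 8 reversed a called direction. In CIA versus healthy 7 of 176 results lost a call, all with the muscle covariate (7 genes called to 0), and Fcgrt was called without CIA library 4 (0.40, adjusted p = 0.0286). In CIA+F20 versus CIA 35 of 176 lost a call: the 7 genes lower became 0 with the muscle covariate, 3 with the replicate block and 2 to 7 when each library was left out. In CIA+F20 versus healthy the count of 0 became 1 with DESeq2 and 0 to 2 when each library was left out, and 7 to 8 was the range for CIA versus healthy. The muscle covariate took all genes called from 7175 to 343 in CIA versus healthy and from 4669 to 1 in CIA+F20 versus CIA; the cause was not tested. Replicate numbers did not pair the libraries (correlation of deviations -0.39 to 0.24, over 0.1 in 3 of 15 pairs). With an exact sign-flip permutation test of paired differences, which cannot give a p below 0.0625, the log2 ratios to Fcgr2b of Fcgr1 (0.94 in CIA and 0.92 in CIA+F20, against healthy) and Fcgr4 (2.42 in CIA against healthy) had p = 0.0625, and Fcgr4 in CIA+F20 against healthy (1.73) p = 0.188. With the replicate block the genes lower with F20 numbered 7 ITAM-paired receptors, 1 Src family kinase, 2 transducers, 6 brakes and 16 of the KEGG term, and 3 other Fc receptors were higher in CIA. Without the filter on low counts 2 Src family kinases and 7 transducers were lower with F20, and with only these groups in the fit 4 genes of the KEGG term were higher. At a pseudocount of 5 no ratio passed after adjustment (smallest adjusted exact permutation p = 0.119). That last ratio was 0.51 at a pseudocount of 5 (exact permutation p = 0.341) and 1.37 to 2.19 when each library was left out. The Fcgr4 ratio in CIA+F20 against CIA was -0.997 to -0.23, with exact permutation p = 0.0159 without CIA+F20 library 2. Left out in turn, libraries gave 0.82 to 1.08 (CIA) and 0.80 to 1.08 (CIA+F20) for Fcgr1 and 2.06 to 2.70 (CIA) for Fcgr4 against healthy. The count of genes with TTCNNNGAA before the start moved from 2 to 1 with RefSeq starts. Depth limits Fcgr4 most: healthy libraries held 1 to 11 reads of it.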
